A study of Rattus norvegicus with 2 samples.

Results

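The genes of the proteasome were taken from the deposited expression table by symbol, as every Psma to Psmg gene except the immune subunit genes Psmb8, Psmb9 and Psmb10. The rule found 44 of the 23282 genes listed, each with 1 row, on 16 of 21 chromosomes, with 8 of them on chromosome 10. One of the 44, Psmc3ip, encodes a meiotic recombination factor named for binding a proteasome ATPase and is no proteasome subunit, which leaves 43 proteasome genes. RNA-seq libraries were made from total RNA of untreated, wild-type embryonic stem cells of the rat (Rattus norvegicus), 2 in all, which the series calls biological replicates. The cells were the DA-EC8/Rrrc line of the Dark Agouti strain at passage 30, labelled with a normal karyotype and grown in 2i medium, which holds inhibitors of the kinases MEK and GSK3. All RNA came from this 1 line, both libraries form 1 wild-type group, and no label says whether the RNA came from separate cultures, so there is no contrast between conditions and no test between groups.

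The proteasome degrades proteins that carry ubiquitin chains. Its core is a barrel of stacked rings, with outer rings of alpha subunits that gate the channel and inner rings of beta subunits that hold the proteolytic sites. A regulatory particle caps the barrel: its base holds a ring of ATPases that unfold substrates, and its lid removes ubiquitin. Other activators can replace that cap, and dedicated chaperones help to assemble core and base. In human embryonic stem cells the lid subunit PSMD11 is known for its link to high proteasome activity.

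Levels are RPKM, reads scaled to a gene model's length in kilobases and to 1000000 reads, a value per length that can be set side by side between genes. Shared steps in the values point to 2991184 reads in replicate 1 and 3050685 in replicate 2, so that 3 reads on a model of 2 kb are worth 0.501 and 0.492 RPKM. The 7 embryonic stem cell markers checked, Pou5f1, Sox2 and Nanog among them, lay between 70.5 and 655 RPKM. Of 8 fibroblast or feeder markers 3 reached a mean of 1 RPKM, with a summed level of 6.31 and 11.5 RPKM in replicates 1 and 2 and Col1a2 listed at 0. The 8 blood cell markers all stayed under 1 RPKM, with a summed level of 2.29 and 1.60 RPKM and Itgam, Hbb and Csf1r listed at 0. What part other cells had in the proteasome values was not tested.

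Nearly every proteasome gene was detected, and most subunits of the complete particle were abundant. Of the 44 genes 42 (95.5%) had a mean of 1 RPKM or more, against 46.4% of all genes listed. At 100 RPKM or more stood 24 (54.5%), against 4.00% of all genes. All 24 belonged to the core, base or lid. Another 17 lay between 10 and 100 RPKM, Psmb6 was at 5.36 RPKM, and Psme2 and Psmb11 stayed under 1 RPKM. Around the higher limit Psmd12 lay just inside at 109 RPKM and Psmd7 just outside at 93.0 RPKM. The median level of the 44 genes was 131 ± 5.80 RPKM (SD, n = 2), against 16.7 ± 0.151 RPKM over the 10814 detected genes. Without Psmc3ip 41 of 43 genes were at 1 RPKM or more, and the median was 138 ± 3.16 RPKM. The share of the 44 genes in all RPKM was 1.42% and 1.43% in replicates 1 and 2. In bulk RNA, fewer cells that transcribe a gene and less RNA per cell cannot be told apart.

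**Figure D1:**
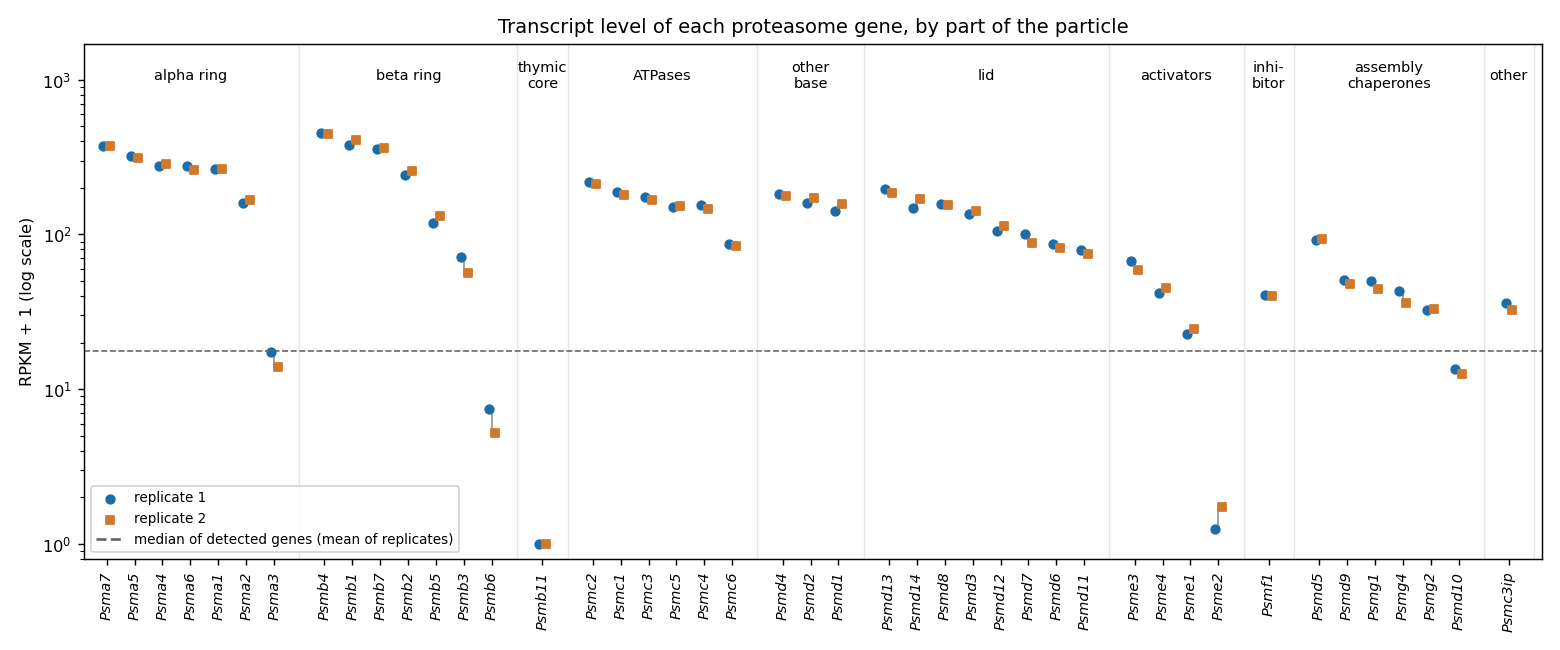
RPKM + 1 (log axis) of each of the 44 genes in replicate 1 (circles) and replicate 2 (squares), grouped by part of the particle, with a dashed line at the median of detected genes. Core genes reach highest, while Psma3, Psmb6, Psme2, Psmb11 and Psmd10 lie under the line.

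The parts of the particle differed in median level, from core over base and lid to the activators. The median was 265 ± 4.43 RPKM (SD, n = 2) over 14 core genes, 162 ± 3.61 RPKM over 9 base genes, 123 ± 4.37 RPKM over 8 lid genes and 32.6 ± 1.67 RPKM over 4 activators. At 100 RPKM or more were 11 of 14 core, 8 of 9 base and 5 of 8 lid genes, and none of the activators. On the log2(RPKM + 1) scale the core median lay above the base median by 0.75 in replicate 1 and 0.67 in replicate 2, a difference of 0.71 ± 0.06. It lay above the lid median by 1.17 and 1.06 (1.11 ± 0.08) and above the activator median by 3.12 and 2.98 (3.05 ± 0.10). Each difference exceeded its SD over replicates. That SD leaves out the spread among genes, and no test was made. Class means of RPKM were 237 in the core, 160.3 in the base and 125 in the lid. With means of log2 values the core minus base difference was -0.019 ± 0.035, smaller than its SD, and the core minus lid difference was 0.37 ± 0.033.

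Levels spread more widely among core genes than among base or lid genes. The SD over genes of log2(RPKM + 1) was 1.86 in the core, 0.37 in the base and 0.48 in the lid, and 2.46 over the 4 activators. Base genes spanned 2.52-fold from lowest to highest and lid genes 2.48-fold, against 83.2-fold in the core. Core subunits are built into the barrel in equal numbers. Without Psma3 and Psmb6, left out after their values were seen, the core SD was 0.81. How reads that match several places in the genome were counted is not given, so the low core values and this spread are uncertain.

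Promoter sequences show elements that some of these genes share. RefSeq (GRCr8 build) gave a promoter for 39 of the 44 genes, 27 of them core, base or lid genes, and none for Psma7, Psmb11, Psmd6, Psmd12 and Psmd14. The 250 bases before each start were searched on both strands for 6 short motifs, and matches of different motifs could overlap. The letters CGGAAGT, the core bound by ETS family factors, were found in 10 of the 27 (37.0%), against 5.22% of 33469 promoters and 12.2% of 9860 promoters of genes detected in these cells. Of the 11 matches 10 began within 80 bases of the start. The 10 genes lay between 155 and 446 RPKM with a median of 273 RPKM, and the 17 without a match between 5.36 and 264 RPKM with a median of 148 RPKM. Over all 39 genes 12 held the letters. The others were the activator gene Psme3 (62.2 RPKM) and the chaperone gene Psmg1 (46.4 RPKM), both below that range of the 10. Of the 10, Psma4, Psma5, Psma6, Psmb1, Psmb4 and Psmb7 are core genes, the part with the highest median. The low core genes Psma3 and Psmb6 are among the 17. Whether the letters go with level apart from the part of the particle was not tested. Over detected genes the median was 25.9 RPKM in 1124 genes with the letters and 16.3 RPKM in 7708 without. The antioxidant response element core TGACNNNGC, the site of the proteasome regulator Nrf1, was in 5 of the 27 (18.5%), against 10.1% of all and 12.8% of detected genes' promoters. CCAAT was in 14 of 27 (51.9%), against 34.0% of all and 35.8% of detected genes' promoters. GGGCGG was in 19 (70.4%), against 30.5% of all and 59.7% of detected. TATAAA was in 4 (14.8%), near the 12.9% of all promoters and above the 5.92% of detected. These 4 matches began between 245 and 150 bases before the start. Interferon response elements, read as GAAA, any 2 bases and GAAA again, were in 3 of the 27, namely Psma4, Psmb3 and Psmd7. That is 11.1%, against 3.41% of all and 2.26% of detected genes' promoters. A match is a run of letters and does not show that a factor binds there.

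The windows below hold the 80 bases before the start, 5′ to 3′ on the gene's strand, with the matched letters in capitals. The first set shows CGGAAGT or its reverse complement in the highest beta subunit gene Psmb4 (chr2:185134562-185134641, minus strand), the catalytic gene Psmb7 (chr3:42827471-42827550, minus), the highest ATPase gene Psmc2 (chr4:14162391-14162470, minus) and the highest lid gene Psmd13 (chr1:205394168-205394247, plus).
Psmb4: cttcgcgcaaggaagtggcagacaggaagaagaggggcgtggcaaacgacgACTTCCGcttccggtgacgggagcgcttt
Psmb7: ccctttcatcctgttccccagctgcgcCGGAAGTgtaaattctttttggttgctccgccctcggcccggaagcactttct
Psmc2: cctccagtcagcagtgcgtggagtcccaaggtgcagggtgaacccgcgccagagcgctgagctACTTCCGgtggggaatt
Psmd13: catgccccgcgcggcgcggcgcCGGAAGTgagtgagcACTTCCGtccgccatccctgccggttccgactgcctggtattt

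The other catalytic genes, Psmb5 (chr15:32047380-32047459, minus) and Psmb6 (chr10:55737808-55737887, plus), are shown for the letters TGACNNNGC. Neither holds CGGAAGT in the 250 bases searched.
Psmb5: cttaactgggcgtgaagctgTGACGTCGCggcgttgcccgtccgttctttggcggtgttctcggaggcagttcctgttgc
Psmb6: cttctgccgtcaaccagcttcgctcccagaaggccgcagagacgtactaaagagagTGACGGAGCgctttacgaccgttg

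Within the alpha ring 6 of 7 genes lay between 162 and 374 RPKM, and Psma3 was far lower. Psma7, whose product helps to gate the channel, was highest at 374 RPKM in both replicates. Psma5, next in level, was at 319 and 311 RPKM in replicates 1 and 2. Psma4 (280 ± 4.66 RPKM), Psma6 (267 ± 10.2 RPKM) and Psma1 (264 ± 1.32 RPKM) lay close together. Psma2 was at 159 and 166 RPKM. Psma3 was at 16.3 and 12.8 RPKM in replicates 1 and 2, so Psma7 stood 22.9-fold and 29.2-fold above it. The RefSeq names give Psma3 (chromosome 6, 102868534 to 102898751 on rn5) 2 pseudogene copies. The deposited table also lists LOC100361067, described as alpha type-3-like, at 5.33 and 4.68 RPKM.

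The beta ring spread further, from Psmb4, the highest proteasome gene of all, to Psmb6. Psmb4 (chromosome 2, 215536945 to 215539638 on rn5) was at 451 and 441 RPKM in replicates 1 and 2, rank 78 among all genes. Psmb1, a structural subunit without a proteolytic site, followed at 378 and 408 RPKM, and Psmb2, another such subunit, was at 248 ± 11.02 RPKM. The structural subunit gene Psmb3 was low, at 70.4 and 55.8 RPKM. Its symbol has 10 named copies in RefSeq, the most of any of the 44 genes, 8 of them pseudogenes. The alpha ring median lay above the beta ring median by 0.19 (log2) in replicate 1 and 0.05 in replicate 2. That difference turned to -0.12 without Psma3 and Psmb6, so its sign rested on those genes.

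The 3 proteolytic subunits, each with its own cleavage preference, were uneven in transcript level. Psmb7, the trypsin-like subunit, was at 357 and 359 RPKM in replicates 1 and 2. Psmb5, the chymotrypsin-like subunit that bortezomib targets, was at 118 and 130 RPKM, and Psmb7 stood 2.90 ± 0.186-fold (SD, n = 2) above it. Psmb6, the caspase-like subunit (chromosome 10, 56888972 to 56891279 on rn5), was at 6.49 and 4.24 RPKM, rank 8269 among all genes. Psmb7 thus stood 55.0-fold above Psmb6 in replicate 1 and 84.6-fold in replicate 2. The smallest whole reads that fit both values of Psmb6 are 15 and 10, and the replicate ratio of 0.654 has a counting interval from 0.263 to 1.56. RefSeq names 3 copies after Psmb6. One of these, listed as LOC100360846 and described as beta type 6-like, was at 1.29 and 2.11 RPKM, and LOC688853, of the same description, was listed at 0.

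The immune counterparts, which interferon induces and which replace these 3 subunits, were low or listed at 0. Psmb10, the counterpart of Psmb7, was at 8.70 and 10.8 RPKM in replicates 1 and 2, so Psmb7 stood 41.0-fold and 33.1-fold above it. Psmb9, the counterpart of Psmb6, was at 0.366 RPKM and listed at 0. Psmb8, the counterpart of Psmb5, was listed at 0 in both replicates, as was Psmb11, the thymus-specific form. Psmb11 lies 4898 bp from Psmb5 on chromosome 15 of rn5, so these neighbours differed from 124 RPKM to a listed 0. Psma8, the germ cell form of Psma7, stands in the table as RGD1311659, matched by its Entrez identifier, at 0.364 and 0.713 RPKM.

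**Figure D2:**
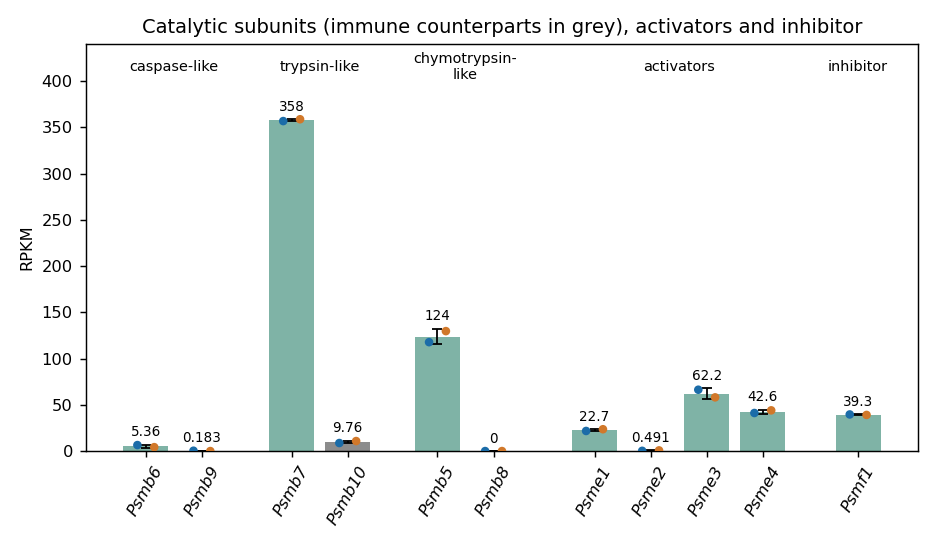
RPKM of the 3 catalytic subunit genes (green) beside their immune counterparts (grey), and of the activators and the inhibitor. Bars are means, error bars the SD of 2 replicates, and dots the replicates, and Psmb7 at 358 RPKM stands above all others.

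The ATPase ring of the base was even. Psmc2 was highest at 218 and 210 RPKM in replicates 1 and 2, and Psmc1 followed at 188 and 179.7 RPKM. Psmc3 (169 ± 6.10 RPKM), Psmc5 (151 ± 1.17 RPKM) and Psmc4 (150.4 ± 6.28 RPKM) lay next to each other, less than their spread apart for the last pair. Psmc6 was lowest at 85.5 and 83.7 RPKM, and Psmc2 stood 2.52 ± 0.0286-fold above it. All 6 genes thus kept within a narrow band, with Psmc6 the only one under 100 RPKM.

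The other base genes lay within the range of the ATPases. The ubiquitin receptor gene Psmd4 was at 182 and 175 RPKM. The scaffold genes Psmd2, at 159.6 and 169.7 RPKM, and Psmd1, at 139.7 and 155 RPKM, were lower in replicate 1. The 3 genes spanned 1.21-fold. Adrm1, a further ubiquitin receptor of the base whose symbol falls outside the rule, was at 142 and 140.3 RPKM.

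Lid genes ran from Psmd13 down to Psmd11 in small steps. Psmd13, a structural subunit, was at 196 and 184 RPKM in replicates 1 and 2. Psmd14, the metalloprotease that cuts ubiquitin chains off substrates, was at 147 and 168 RPKM. The scaffold subunit genes Psmd8, Psmd3 and Psmd12 were at 155 ± 0.821, 138 ± 3.16 and 109 ± 5.58 RPKM. Psmd7, whose product pairs with that of Psmd14, was at 93.0 ± 8.96 RPKM. Psmd6, a further scaffold subunit gene, was at 85.5 and 81.1 RPKM. Psmd11, the subunit singled out in human embryonic stem cells, was the lowest of the 8 lid genes at 78.9 and 74.0 RPKM. It stood 2.48 ± 0.00193-fold under Psmd13. Neither protein nor proteasome activity was measured here, so this rank does not bear on the human link. Shfm1, a small lid subunit outside the rule (Sem1 in RefSeq), was at 156 and 162 RPKM.

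The lid is related by descent to the COP9 signalosome, which removes the ubiquitin-like protein Nedd8 from ubiquitin ligases, and to the translation factor eIF3, and the deposited table lists paralogs across them. Psmd11 is paired there with Cops2, which was at 151 and 155 RPKM and so 1.91-fold and 2.10-fold above it. Psmd7 is paired with Cops6, at 135 and 145 RPKM, and Psmd12 with Cops4, at 125 and 115 RPKM. Psmd14 is paired with Eif3h, listed at 0 in replicate 1 and at 0.570 RPKM in replicate 2. The median of 9 signalosome genes was 98.0 ± 4.11 RPKM, that of 12 eIF3 genes 207 ± 5.23 RPKM, and that of 8 genes of the chaperonin CCT, which folds actin and tubulin, 358 ± 2.76 RPKM. The lid median thus lay above that of the signalosome and the core median under that of CCT, with no test of either difference. Of eIF3, too, Eif3h (0.285 RPKM) and Eif3e (5.15 RPKM) fell far under the other subunits. Whether these rows hold the reads of the whole genes was not tested, so both values are uncertain.

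**Figure D3:**
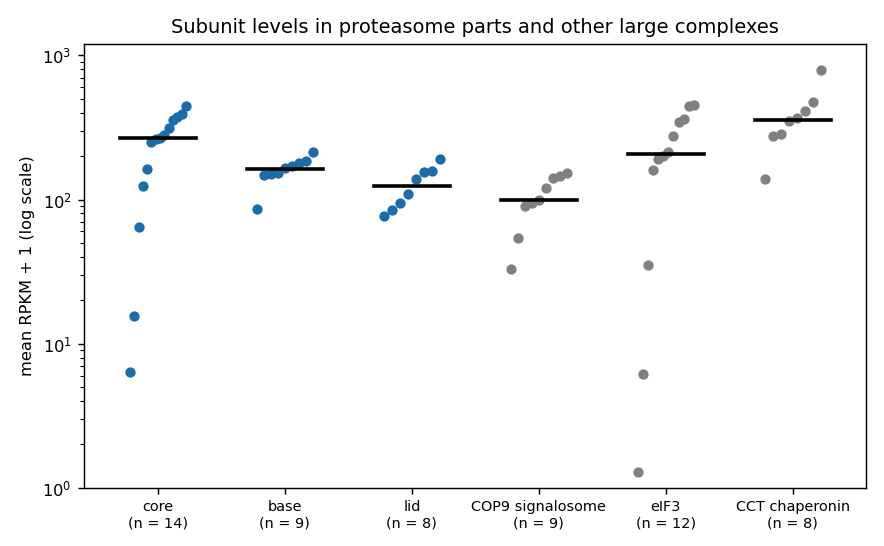
Mean RPKM + 1 (log axis) of each gene in the core, base and lid (blue) and in 3 other complexes (grey), with bars at the group medians. Base genes span 2.52-fold and lid genes 2.48-fold, while the core and eIF3 each hold genes far below the rest.

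Activators were well below the core, and the partners of 1 complex differed. Psme3, which forms the nuclear activator PA28-gamma, was highest at 66.3 and 58.1 RPKM in replicates 1 and 2. Psme4, which encodes the activator PA200, was at 41.1 and 44.0 RPKM. Psme1, a subunit of the interferon-inducible activator PA28, was at 21.7 and 23.6 RPKM, and Psme3 stood 2.76 ± 0.418-fold above it. Its partner Psme2 was at 0.249 and 0.732 RPKM, which the smallest whole reads put at 1 and 3 reads. With so few reads the replicate ratio of 2.94 has a counting interval from 0.236 to 154. Psme1 (38146266 to 38149142, plus strand) and Psme2 (38155747 to 38160046, minus strand) lie 6604 bp apart on chromosome 15 of rn5. RefSeq names 3 pseudogene copies after each of them, and the table lists LOC100362709, described as activator subunit 2-like, at 1.33 and 0.434 RPKM. The inhibitor gene Psmf1 was at 39.6 and 39.1 RPKM, close to Psme4.

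The interferon response element letters were found before the start of Psme2 (chr15:33052752-33052831, minus strand) and of the immune subunit gene Psmb10 (chr19:50743293-50743372, minus strand), and not before Psme1 (chr15:33038891-33038970, plus strand). They are shown because interferon response elements are what PA28 and the immune subunits are known for. The letters were not in the windows of the immune subunit genes Psmb8 and Psmb9, and Psma4, which has them, was at 280 RPKM, so low and high genes both held them.
Psme2: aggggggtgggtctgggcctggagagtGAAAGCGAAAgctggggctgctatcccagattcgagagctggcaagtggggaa
Psmb10: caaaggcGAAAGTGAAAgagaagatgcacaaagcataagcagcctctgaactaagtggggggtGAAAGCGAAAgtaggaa
Psme1: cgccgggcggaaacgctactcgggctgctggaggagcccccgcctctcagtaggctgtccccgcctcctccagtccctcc

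The 6 assembly chaperone genes that match the rule had a median of 42.6 ± 4.50 RPKM, below the core, base and lid medians, and none reached 100 RPKM. Psmg1, Psmg2 and Psmg4 nonetheless lay above the core genes Psma3 and Psmb6, and Psmd5 above the ATPase gene Psmc6. Psmd5, a chaperone of the base, was highest at 91.2 and 91.8 RPKM, followed by the base chaperone gene Psmd9 at 50.0 and 47.1 RPKM. Of the core chaperones Psmg1 was at 49.3 and 43.5 RPKM, Psmg4 at 42.2 and 35.3 RPKM and Psmg2 at 31.4 and 32.0 RPKM. Psmd10, the base chaperone also called gankyrin, was lowest at 12.5 and 11.5 RPKM. The table places Psmd10 on chromosome 3 of rn5, whereas its RefSeq promoter is on chromosome X of GRCr8, so which gene copy the value belongs to is uncertain. The core chaperone gene Psmg3 stands in the table as LOC100361517, matched by its Entrez identifier, at 29.1 and 20.9 RPKM. Pomp, which matures the beta ring, was listed at 0 in both replicates, while LOC100911238, described as proteasome maturation protein-like, was at 3.001 and 8.83 RPKM. Both rows lie on chromosome 12 of rn5. How reads that match both would be counted is not given, so the listed 0 of Pomp is uncertain. Psmc3ip was at 34.9 and 31.7 RPKM.

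Several low genes have named copies elsewhere in the genome, and so do several high ones. RefSeq names 52 copies after 19 of the 44 genes, 48 of them pseudogenes. The share of all genes with a named copy was not computed, so whether this is unusual is not known. Copies without such a name, such as LOC100361067 (alpha type-3-like), are not counted. Among core, base and lid genes the 15 with a copy had a median of 155 RPKM and ranged from 5.36 to 446 RPKM, and the 16 without one had a median of 174 RPKM and ranged from 76.4 to 393 RPKM. At 100 RPKM or more stood 11 of the 15 with a copy and 13 of the 16 without one. All 3 core genes under 100 RPKM, Psma3, Psmb3 and Psmb6, were among those with copies. So were the core genes Psma2, Psma5, Psma6, Psma7, Psmb4 and Psmb7, all above 100 RPKM. Among base and lid genes under 100 RPKM, Psmc6 had copies, and Psmd6, Psmd7 and Psmd11 had none. Of the 5 genes with 3 or more copies, however, Psma7, Psma6 (5 copies) and Psmc4 stood at 100 RPKM or more. How reads that match several places were counted is not given in the sources used here, and the part of copies in these values was not tested. A low or listed 0 value of these genes is therefore uncertain.

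**Figure D4:**
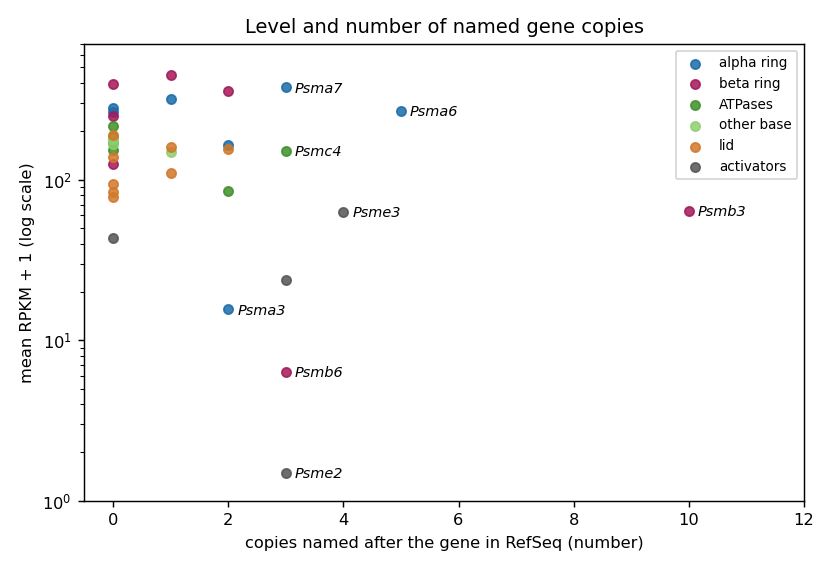
Mean RPKM + 1 (log axis) of core, base, lid and activator genes against the number of copies that RefSeq names after each gene, coloured by part. Genes under 10 RPKM (Psmb6 and Psme2) have 3 copies each, as does Psma7 at 374 RPKM.

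The replicates gave nearly the same levels. None of the 42 genes at 1 RPKM or more differed over 2-fold in RPKM + 1 between replicates, against 0.721% of the 10814 detected genes. Within 10% of each other in RPKM lay 31 of 42, a count whose share over all detected genes was not computed. Replicate 2 was higher in 18 of 42 (42.9%), and in 4962 of the 10814 detected genes. The median log2 ratio was -0.03, against -0.02 over all detected genes. The 3 genes farthest apart were Psmb6 (-0.51, log2), Psmb3 (-0.33) and Psma3 (-0.32), all lower in replicate 2. These are also the 3 lowest genes of the core. Whole reads in both libraries could be recovered for 29 of 43 genes above 0, with at least 172 and 139 reads for Psmb3 and 96 and 77 for Psma3. The 95% counting interval (exact Clopper-Pearson) of the replicate ratio left out 1 for 4 genes: Psmb3 (0.629 to 0.997), Psmd1 (1.03 to 1.20), Psmd14 (1.03 to 1.27) and Psme3 (0.801 to 0.958). These intervals cover counting error only and compare the libraries, not conditions. No share over all genes was computed for them.

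**Figure D5:**
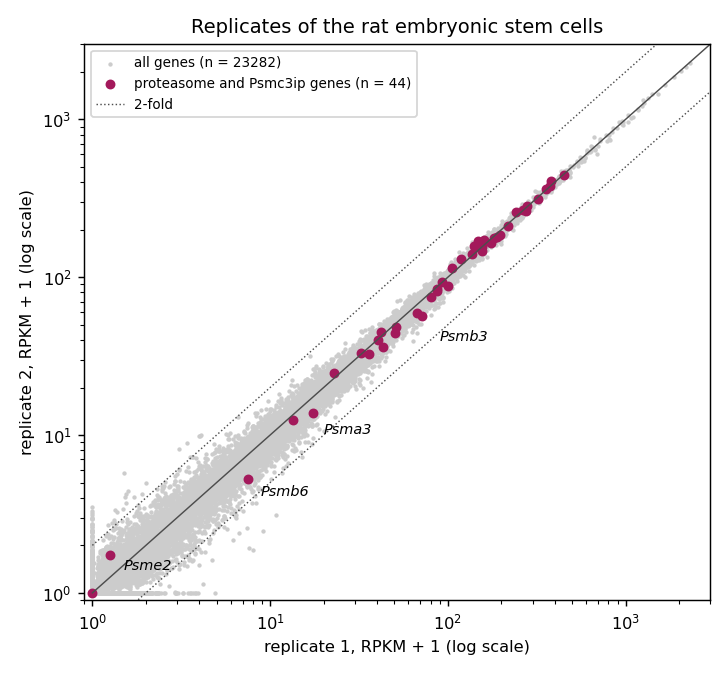
RPKM + 1 in replicate 2 against replicate 1 (log axes) for all 23282 genes (grey) and the 44 genes chosen (red), with the line of equality and dotted lines at 2-fold. All 44 lie inside the 2-fold lines, with Psmb6 nearest the lower one.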

How the data were processed

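RNA was sequenced from 2 libraries of 1 group. Expression came as RPKM in a single table that the authors deposited, whose columns carry the sample titles. CASAVA 1.8 and TopHat 1.4.0 and the builds rn5 and Rnor_5.0 are named per the submitters' processing notes. The counting tool is not given in the sources used here. The 23716 rows were summed to 23282 Entrez identifiers. RPKM is not a count and there is no contrast, so no test was run and values are means ± SD over 2 replicates, with log2(RPKM + 1) for differences, which understates changes of low genes. Detected means at least 1 RPKM. Read totals are those that made most rows with a locus under 6000 bp whole (526 of 2700 and 525 of 2688). Member reads use the shortest model from 60 to 8000 bp whole within 3e-07 in both libraries, so they can be too few and their intervals too wide, and some matches can be chance. This step was tested on simulated data. Copies are RefSeq GRCr8 symbols of a gene followed by -ps or l and a number, and all 44 genes matched by identifier.

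Every gene chosen is named once. Values in both replicates were due for the 2 highest and 2 lowest of each part, all activators and the inhibitor, and the 3 with the largest replicate ratio. Genes, lists and classes were chosen with earlier results of these data known. Alternatives were each replicate alone, the highest row per gene, libraries rescaled to 1000000, a minimum for members, class means, a pseudocount of 0.1, other class borders, other detection limits and a median-centred ratio. Leaving out Psma3, Psmb6 and Psme2 was added after the data were seen. Software was pandas 2.3.3, numpy 2.4.6, scipy 1.17.1 and, for figures, matplotlib 3.10.9, under Python 3.11.15. Ecm29, Paaf1 and Eif3l were not analysed here. Some genes of the lists are not reported here.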

Additional observations from a re-analysis of the deposited data

How the results depend on the processing

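No paired analysis was possible because the series holds 1 group. Some alternatives could not move a result. No member had more than 1 row. With 2 replicates the mean without either one lies within 1 SD when the genes compared stay the same. Rescaling each library to 1000000 moved the medians to 607 (core), 371 (base), 282 (lid) and 74.6 (activators), which is a change of scale. Class means gave levels of 237 RPKM (core) and 160.3 RPKM (base), and means of log2 values gave differences of -0.019 ± 0.035 (core minus base) and 0.37 (core minus lid). With Psma8 and Psmb11 in the core, its median was 255 RPKM and core minus base 0.65. With Psmd4 in the lid, the lid median was 138 RPKM and core minus lid 0.94. With members at 1 RPKM or more, activators were at 42.6 RPKM and core minus activators at 2.61. Leaving out Psma3, Psmb6 and Psme2, chosen after the data were seen, gave 275 RPKM (core), 42.6 RPKM (activators), 2.66 (core minus activators) and -0.12 (alpha ring minus beta ring). Over the alternatives run, core minus lid ranged from 0.37 to 1.17, core minus activators from 2.61 to 3.14 and core minus base from -0.019 to 0.76, below 0 only for means of log2 values. Depth limits Psme2 and Psmb6, with few reads each.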

Other observations

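The gene Ubb, which encodes ubiquitin, the tag that marks proteins for the proteasome, was at 551 and 543 RPKM in replicates 1 and 2. Rps27a, which encodes ubiquitin fused to a ribosomal protein, was listed at 12.9 and 13.8 RPKM. Its row covers only 142431165 to 142431709 on chromosome 5 of rn5. Whether this row holds the reads of the whole gene was not tested, so the value is uncertain. Of the genes for ubiquitin-activating enzymes, Uba1 was at 233 and 245 RPKM and Uba6 at 20.6 and 22.8 RPKM. Among 15 genes listed for other proteasome proteins, Adrm1 and Shfm1 among them, 14 reached a mean of 1 RPKM. The shuttle factor gene Rad23b led them at 318 and 328 RPKM. The deubiquitinase gene Uchl5 was the lowest of these 14 at 27.4 and 27.8 RPKM.

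Nrf1, the factor that raises proteasome genes when proteolysis is blocked, is encoded by Nfe2l1, which was at 50.2 and 47.8 RPKM. All 11 genes of the list around it reached 1 RPKM, with a median of 30.2 ± 0.342 RPKM (SD, n = 2). Vcp, whose ATPase pulls Nrf1 from the endoplasmic reticulum, was highest at 449.8 and 468 RPKM. The protease gene Ddi2, which cleaves Nrf1, was at 55.2 and 56.4 RPKM. Ngly1, which removes its sugar chains, was lowest at 2.75 and 3.29 RPKM.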
